A study of Mus musculus with 12 samples.

Results

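The 49 mitosis genes are the genes whose products drive a cell into mitosis, build the spindle, attach and check the chromosomes, separate them and split the cell. They were listed by gene symbol and looked up, with older synonyms, in the annotation of an Illumina mouse bead array, and 48 of them had a probe (Ccnb1, cyclin B1, had none). Of these, 41 passed the detection filter, among 10873 genes that passed it in all. The other 7 (Ccnb2, Cks2, Bub1, Nuf2, Cenpe, Kif20a and Racgap1) had no probe that was detected on both arrays of any group and were not tested. RNA was measured in mouse embryonic fibroblasts (MEFs), connective tissue cells grown from embryos, of the genotypes TAp73-/- and TAp73+/+. TAp73 denotes the isoforms of the transcription factor p73, a relative of p53, that carry the transactivation domain. Per the labels, all cells grew in DMEM with serum, and for each genotype there were 2 arrays of cells held at 1% oxygen (hypoxia) for 4 h, 2 of cells held there for 8 h and 2 of untreated cells at 21% oxygen, 12 arrays in all.

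Mitotic genes are transcribed late in the cell cycle, and their messages and proteins are largely removed as the cell leaves mitosis. Cyclin-dependent kinase 1, the Aurora kinases and Polo-like kinase 1 start and order mitosis, the spindle checkpoint holds the chromosomes until every kinetochore is attached, and the anaphase promoting complex then marks securin and cyclin B for destruction. In dividing fibroblasts these genes are among the usual measures of proliferation. An RNA level in a bulk sample reads the whole culture, so fewer mitotic cells and less RNA per cell cannot be told apart here.

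Many promoters of such genes share a pair of short elements, the CHR (cell cycle genes homology region), bound by the DREAM and MuvB complexes, and the CCAAT box, bound by NF-Y. The promoter table from RefSeq (GRCm38.p6, from 250 bases before to 50 after each annotated start) held 41 of the 49 genes. The CHR core letters TTTGAA, searched on both strands, were in 29 of those 41 windows (70.7%), against 20.2% of the windows of all 27025 genes in the table. The NF-Y box letters CCAAT, on both strands, were in 32 of 41 (78%), against 41.1% of all. Restricted to 100 bases before to 50 after the start, the shares were 63.4% for the CHR core and 73.2% for the NF-Y box, against 9.23% and 26.3% of all genes. In 26 of the 29 windows with a CHR core the nearest copy began within 50 bases of the start, and 21 genes had several NF-Y boxes. A match is a match of letters only, and a base may count toward both motifs where they meet.

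The 6 windows printed here run from 100 bases before to 30 after the start of genes whose levels the results turn on: Cdc20 (chr4:118437314-118437443, minus strand), Cenpa (chr5:30666786-30666915, plus strand), Cenpf (chr1:189688057-189688186, minus strand), Espl1 (chr15:102296193-102296322, plus strand), Ube2c (chr2:164769829-164769958, plus strand) and Cdk1 (chr10:69352883-69353012, minus strand). Capitals mark the CHR core (TTTGAA, or TTCAAA where it lies on the other strand) and the NF-Y box (CCAAT, or ATTGG where it lies on the other strand). Each is written 5′ to 3′ on the strand of its gene.
Cdc20: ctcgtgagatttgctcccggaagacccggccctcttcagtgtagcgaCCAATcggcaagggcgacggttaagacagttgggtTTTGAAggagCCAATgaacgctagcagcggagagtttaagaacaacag
Cenpa: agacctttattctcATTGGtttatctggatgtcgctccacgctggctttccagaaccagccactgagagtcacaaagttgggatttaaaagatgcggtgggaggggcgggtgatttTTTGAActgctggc
Cenpf: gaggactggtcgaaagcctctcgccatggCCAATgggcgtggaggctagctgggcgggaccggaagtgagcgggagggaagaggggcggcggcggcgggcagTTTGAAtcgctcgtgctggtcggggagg
Espl1: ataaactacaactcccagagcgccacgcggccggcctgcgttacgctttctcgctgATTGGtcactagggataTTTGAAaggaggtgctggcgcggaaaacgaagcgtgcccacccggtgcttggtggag
Ube2c: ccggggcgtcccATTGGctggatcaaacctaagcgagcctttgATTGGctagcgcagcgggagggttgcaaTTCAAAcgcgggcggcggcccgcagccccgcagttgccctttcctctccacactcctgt
Cdk1: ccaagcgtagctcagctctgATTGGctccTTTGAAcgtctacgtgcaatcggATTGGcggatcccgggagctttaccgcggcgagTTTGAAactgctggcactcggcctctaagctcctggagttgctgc

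In the printed windows Cdk1 holds 2 CHR cores and each of the other 5 holds 1. Cdc20, Ube2c and Cdk1 hold 2 NF-Y boxes in this stretch, and Cenpa, Cenpf and Espl1 hold 1.

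**Figure D1:**
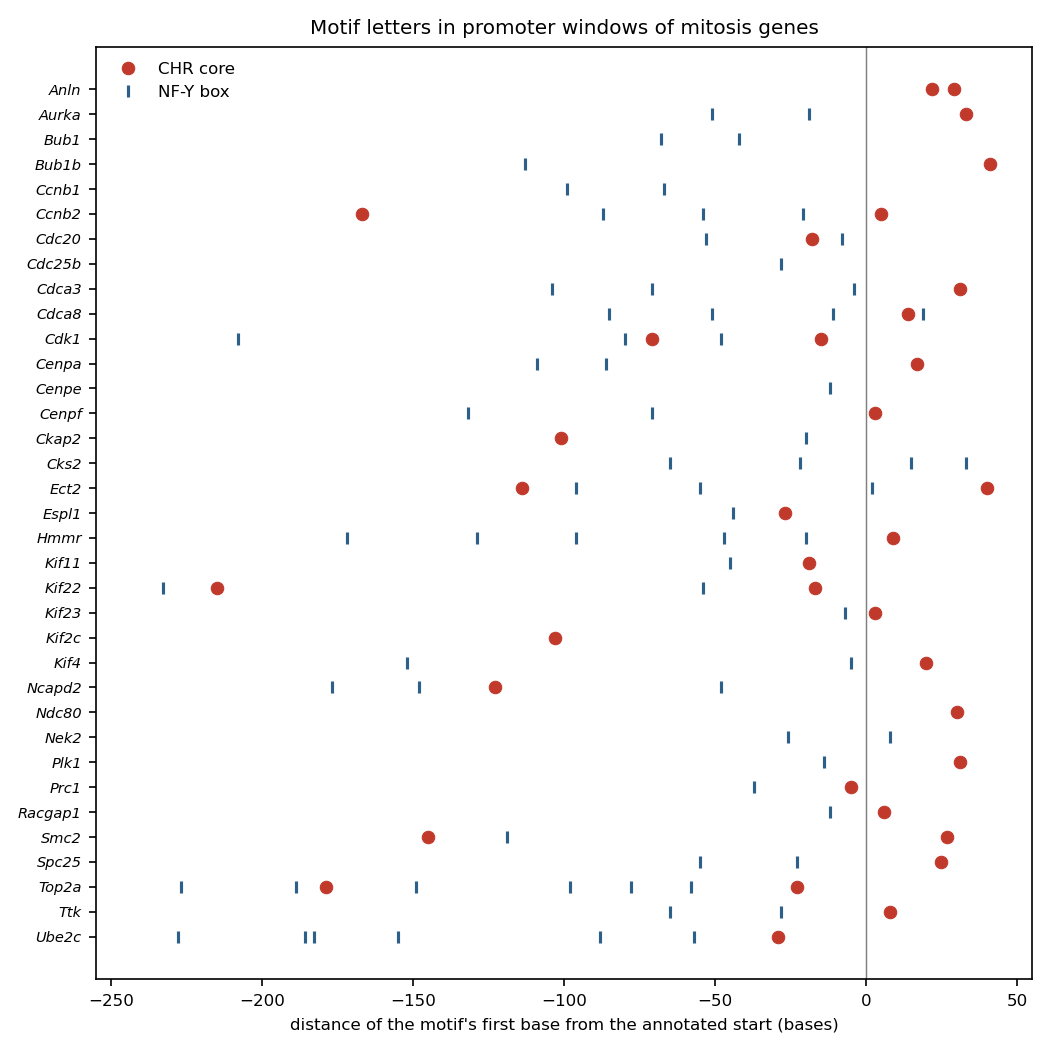
Position of CHR core letters (red circles) and NF-Y box letters (blue ticks) in the promoter windows of the mitosis genes that hold either, against distance in bases from the annotated start (vertical line at 0). Most red circles lie close to the start, and 26 of 29 genes with a CHR core have a copy within 50 bases of it.

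Between 42.8% and 44.5% of 45281 probes were detected on each array, and arrays of the same group correlated at r = 0.991 to 0.997 across probes. The labels do not say whether the 2 arrays of a group are separate cultures, so all tests measure the spread between arrays, which may be technical. Each genotype may be a single MEF line, in which case line and genotype cannot be told apart. Fibroblast markers were detected on all 12 arrays for 5 of 10 genes (Col5a1, Pdgfra, Thy1, Vim and Fn1), while the probes for Col1a1 and Col1a2 were detected on none. The endothelial genes Pecam1, Tie1 and Emcn and the leukocyte genes Ptprc, Adgre1 and Itgam were detected on no array, and of 6 epithelial genes Cdh1 and Krt18 were detected on all arrays and Epcam, Krt14 and Krt5 on none. The muscle gene Des and the neural genes Nes and Map2 were also detected on all. The summed linear signal of the fibroblast markers was 8010 to 9430 untreated, 9040 to 10100 at 4 h and 10200 to 11900 at 8 h in TAp73-/- cells. In TAp73+/+ cells it was 5040 to 5980 untreated, 9270 to 9850 at 4 h and 8410 to 9430 at 8 h, so it was lowest on the untreated TAp73+/+ arrays. That of the epithelial markers was 6650 to 7500 untreated, 6670 to 7630 at 4 h and 7730 to 8360 at 8 h in TAp73-/- cells, against 4570 to 4640, 5500 to 5660 and 5500 to 5840 at the same times in TAp73+/+ cells. The part of either in the results below was not tested. The Trp73 probe was detected on 5 of 6 TAp73-/- arrays and on 0 of 6 TAp73+/+ arrays, and since its place relative to the deleted part is not known here it does not check the genotype. Different probes of the same gene disagreed in a pattern shared by many genes, summarised for each array by a score (the first principal component of the probes' deviations from their gene's mean, which held 50.2% of their variance). TAp73-/- arrays scored -0.101 and -0.133 (untreated), -0.363 and -0.365 (4 h), and -0.236 and -0.0934 (8 h). TAp73+/+ arrays scored 0.59 and 0.386 (untreated), -0.076 and -0.104 (4 h), and 0.193 and 0.302 (8 h). The first array of untreated TAp73+/+ cells had the highest score of the 12, and the calls that ended without it are named with the comparisons below.

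After 8 h of hypoxia a broad set of mitosis genes was lower than in untreated cells, in both genotypes. Per the labels, no untreated arrays match the hypoxia times. Low oxygen and time in culture therefore cannot be told apart in any hypoxia comparison below. All values below are log2 signals of the brightest probe of a gene, differences are hypoxia minus untreated or TAp73-/- minus TAp73+/+ on the log2 scale (a difference of 1 is a 2-fold difference), and ± is the standard error of the limma model. A gene was called where the p-value, adjusted by the Benjamini-Hochberg method over all 10873 genes, was below 0.05. In TAp73-/- cells 12 of 41 mitosis genes fell at 8 h and 0 rose, where 10.2% of all genes fell and 10.6% rose. In TAp73+/+ cells 21 of 41 fell at 8 h and 3 rose, where 12.3% of all genes fell and 11.6% rose. The median difference of the 41 was -0.27 in TAp73-/- and -0.45 in TAp73+/+ cells, against 0 and -0.02 for all genes. These comparisons use no array in common but share the same estimate of each gene's spread, so their calls are not fully independent. In both, 10 mitosis genes fell, which is 83.3% of those that fell in TAp73-/- cells and 47.6% of those that fell in TAp73+/+ cells. The share of all genes that fell in both genotypes was not counted, so this overlap has no background here. The 10 genes were Cdc25c, Plk1, Aurka, Cenpa, Cenpf, Incenp, Kif23, Kif2c, Cdc20 and Espl1. Of these, 8 are in the promoter table and all 8 windows held the CHR core, as did 21 of the other 33, counted after the values were known. From 100 bases before to 50 after the start these counts were 7 of 8 and 19 of 33. For the NF-Y box in the full window they were 7 of 8 and 25 of 33. The other 33 include genes that fell in TAp73+/+ cells only and genes not tested. The genes called higher in hypoxia than untreated (Cdk1, Ckap2, Ect2, Hmmr, Smc2 and Top2a) also held the CHR core.

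At 4 h the picture was mixed. In TAp73-/- cells 3 of 41 fell and 1 rose, where 3.84% of all genes fell and 3.13% rose, so the count was near the background. In TAp73+/+ cells 11 fell and 5 rose, where 16% of all genes fell and 12% rose. The medians were -0.13 in TAp73-/- and -0.14 in TAp73+/+ cells, against -0.03 and -0.06 for all genes. Plk1, Incenp and Espl1 were the genes that fell in both genotypes. From 4 to 8 h, 5 of 41 fell and 0 rose in TAp73-/- cells, where 3.84% of all genes fell and 6.75% rose. In TAp73+/+ cells 14 fell and 0 rose from 4 to 8 h, where 5.22% of all genes fell and 8.62% rose. Plk1, Cenpa and Cdc20 fell over that step in both genotypes. Within a genotype the comparisons share arrays, so their calls are not independent of one another.

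**Figure D2:**
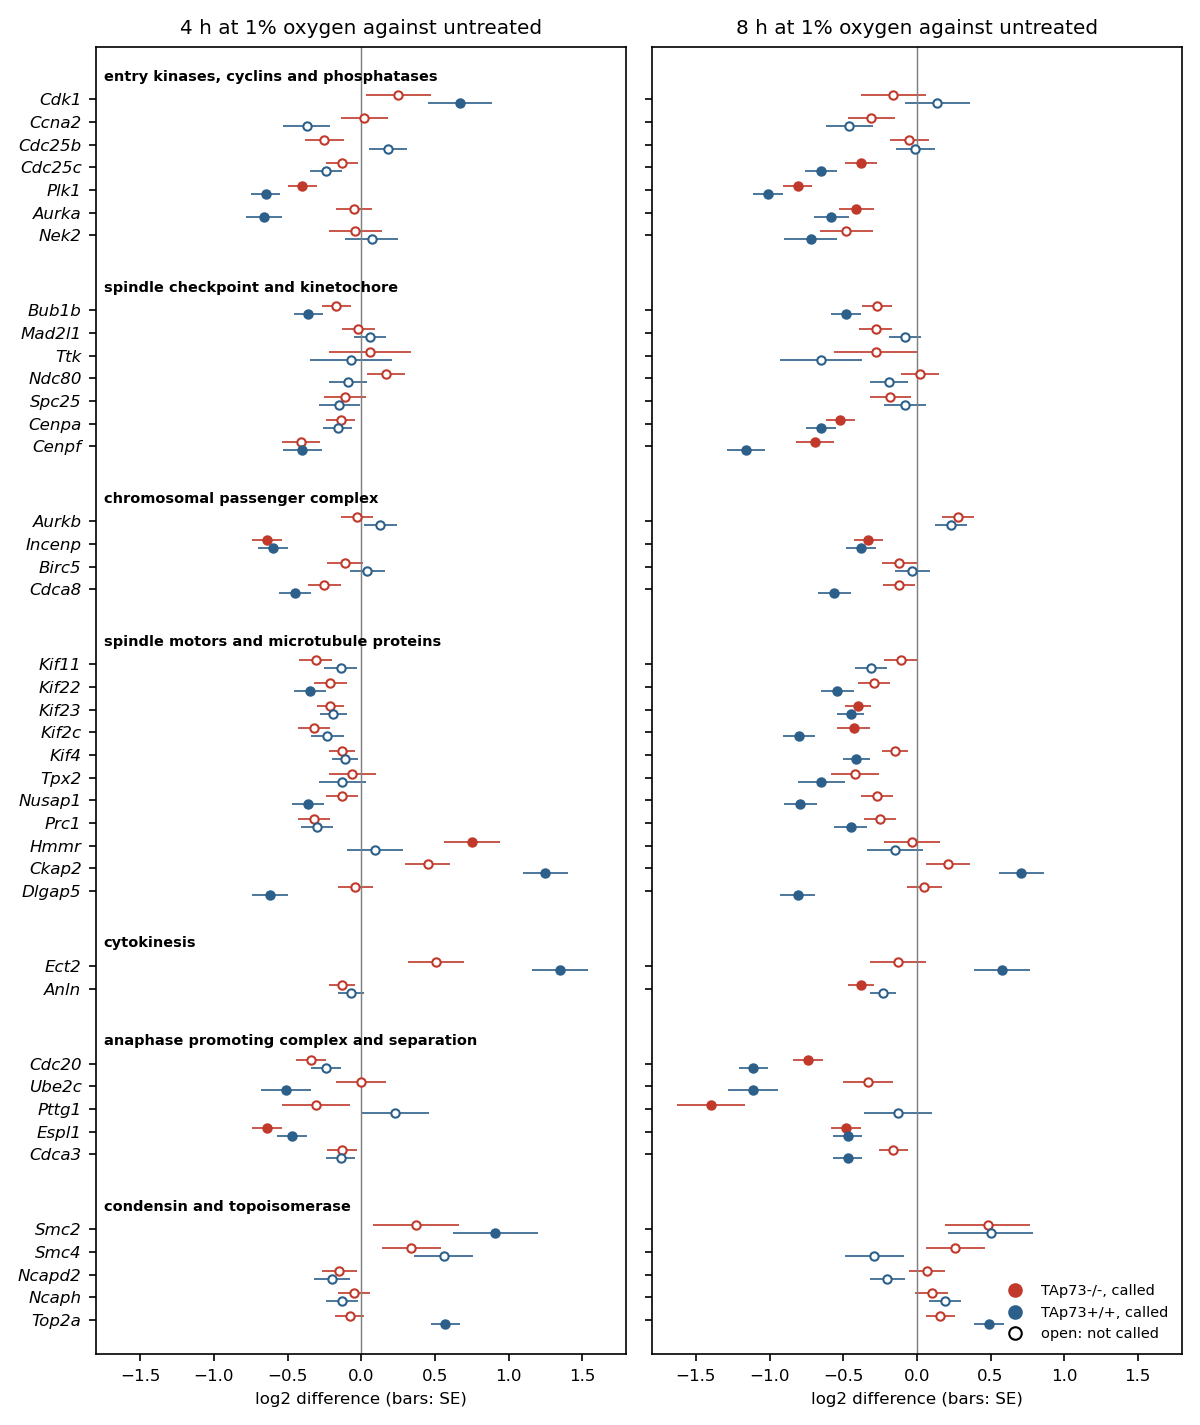
Log2 difference between hypoxia and untreated cells (horizontal axis, bars are standard errors) for the 41 mitosis genes past the filter, by role, at 4 h (left) and 8 h (right), in TAp73-/- (red) and TAp73+/+ (blue) cells, with filled points for called genes. At 8 h most points lie left of 0, with 12 genes called lower in TAp73-/- and 21 in TAp73+/+ cells.

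Leaving out 1 array of a comparison leaves a single array on that side, which is then assumed to vary like the other groups, and moved these counts. At 8 h the TAp73-/- count was 6, 6, 5 or 6 without either untreated array or either 8 h array, and the TAp73+/+ count was 14 without the first 8 h array. Without the first untreated TAp73+/+ array the 8 h calls of Incenp (-0.33, adjusted p = 0.0691), Prc1, Ckap2 and Ect2 were lost. At 4 h the TAp73-/- count was 2 without either untreated array or the second 4 h array, and the TAp73+/+ count was 9 without the first untreated array (Cdk1, Bub1b, Cdca8, Kif22, Nusap1, Ube2c and Smc2 were lost) and 8 and 9 without the first and the second 4 h array. For 8 against 4 h the TAp73-/- count was 1 without the second 4 h array or either 8 h array, and the TAp73+/+ count was 3 and 2 without the 4 h arrays and 4 and 3 without the 8 h arrays. With the probe score as a covariate the counts at 8 h were 13 in TAp73-/- and 9 in TAp73+/+ cells, of which 12 and 8 were among the genes called without it, and they were 0 in both genotypes at 4 h and for 8 against 4 h. The median standard error of the mitosis genes was then 0.17 at 8 h and 0.34 at 4 h in TAp73+/+ cells, against 0.11 without the covariate, while the median differences in those cells stayed near their values, at -0.40 at 8 h (35 of 41 below 0) and -0.18 at 4 h. In TAp73-/- cells at 8 h the median standard error was 0.11 with or without it.

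Among the kinases, cyclins and phosphatases of mitotic entry, 3 of 7 genes past the filter fell at 8 h in TAp73-/- cells and 4 of 7 in TAp73+/+ cells. Plk1 encodes Polo-like kinase 1, which acts from mitotic entry through cytokinesis. Its log2 signal was 11.79 and 11.69 untreated, 11.29 and 11.39 after 4 h, and 10.99 and 10.87 after 8 h in TAp73-/- cells, against 11.66 and 11.80 untreated, 11.05 and 11.12 after 4 h, and 10.71 and 10.74 after 8 h in TAp73+/+ cells. The groups did not overlap at any step in either genotype. Plk1 fell at 4 h, with differences of -0.40 ± 0.10 (adjusted p = 0.0367) in TAp73-/- and -0.65 ± 0.10 (adjusted p = 0.00111) in TAp73+/+ cells. At 8 h the differences were -0.81 ± 0.10 (adjusted p = 0.000344) in TAp73-/- and -1.01 ± 0.10 (adjusted p = 5.76e-05) in TAp73+/+ cells. The fall at 8 h was called in both genotypes under all 13 alternative settings that bear on it, including the covariate (-0.83 in TAp73-/- and -1.14 in TAp73+/+ cells). At 4 h the call in TAp73-/- cells was lost when any 1 of the 4 arrays of the comparison was left out, among other settings, and the call in TAp73+/+ cells was lost with the covariate.

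Aurka encodes Aurora A, the kinase of centrosome maturation and spindle assembly. It read 10.89 and 10.85 untreated, 10.65 and 10.98 after 4 h, and 10.43 and 10.49 after 8 h in TAp73-/- cells, against 10.85 and 11 untreated, 10.25 and 10.28 after 4 h, and 10.38 and 10.32 after 8 h in TAp73+/+ cells. In TAp73+/+ cells both hypoxia times lay below both untreated arrays, while in TAp73-/- cells the second 4 h array was above them. It fell at 8 h, with differences of -0.41 ± 0.12 (adjusted p = 0.0292) in TAp73-/- and -0.58 ± 0.12 (adjusted p = 0.00555) in TAp73+/+ cells. At 4 h it fell in TAp73+/+ cells, with a difference of -0.66 ± 0.12 (adjusted p = 0.00239). The 4 h difference in TAp73-/- cells was -0.05 ± 0.12 (adjusted p = 0.817) and was not called. Leaving out any 1 of the 4 arrays of the comparison ended the 8 h call in TAp73-/- cells.

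Cdc25c, the phosphatase that activates cyclin-dependent kinase 1 at entry, read 8.99 and 9.09 untreated, 8.98 and 8.84 after 4 h, and 8.63 and 8.68 after 8 h in TAp73-/- cells, against 9.08 and 9.30 untreated, 8.87 and 9.03 after 4 h, and 8.47 and 8.61 after 8 h in TAp73+/+ cells. The signal at 8 h was below every untreated and every 4 h array of the same genotype. The difference at 8 h was -0.38 ± 0.11 (adjusted p = 0.0337) in TAp73-/- and -0.65 ± 0.11 (adjusted p = 0.00257) in TAp73+/+ cells, and its other probe also read lower, by -0.38 and -0.79. Nek2, a kinase of centrosome separation, lay near the detection limit, being detected on 6 of 12 arrays. It read 4.86 and 5.13 untreated, 4.92 and 5.0 after 4 h, and 4.59 and 4.44 after 8 h in TAp73-/- cells, against 5.11 and 5.72 untreated, 5.37 and 5.60 after 4 h, and 4.68 and 4.72 after 8 h in TAp73+/+ cells. At 8 h in TAp73+/+ cells, where it was not detected, it was at least 1.29-fold lower than untreated (adjusted p = 0.0151). In TAp73-/- cells, where it was also not detected at 8 h, the fitted difference was -0.48 ± 0.18 (adjusted p = 0.0792) and was not called.

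Cdk1, the central kinase of mitotic entry, and Ccna2, cyclin A2, did not fall by their brightest probes. Cdk1 read 11.67 and 11.66 untreated, 11.80 and 12.04 after 4 h, and 11.48 and 11.52 after 8 h in TAp73-/- cells, against 10.87 and 11.75 untreated, 11.90 and 12.07 after 4 h, and 11.55 and 11.35 after 8 h in TAp73+/+ cells. The untreated TAp73+/+ arrays differed from each other in Cdk1 by more than the arrays of any other group, and the rise called at 4 h in those cells, 0.67 ± 0.22 (adjusted p = 0.0431), became 0.23 (adjusted p = 0.278) without the first of them. With the covariate it became -0.86 (adjusted p = 0.638), and both dimmer Cdk1 probes read lower at 4 h there, at -0.19 and -0.47. Tested probe by probe, the dimmest was called lower at 4 h in both genotypes (-0.68, adjusted p = 0.0292, in TAp73-/- and -0.47, adjusted p = 0.0355, in TAp73+/+ cells). The other dim probe was called lower at 8 h in TAp73-/- cells (-0.49, adjusted p = 0.0191). The Cdk1 probes thus went in opposite directions. Ccna2 read 7.45 and 7.15 untreated, 7.21 and 7.44 after 4 h, and 7.10 and 6.87 after 8 h in TAp73-/- cells, against 6.87 and 6.51 untreated, 6.16 and 6.48 after 4 h, and 6.20 and 6.25 after 8 h in TAp73+/+ cells. Its hypoxia differences were not called at any time in either genotype, the widest being -0.46 ± 0.16 (adjusted p = 0.0625) at 8 h in TAp73+/+ cells. Cdc25b, a phosphatase that acts early in entry, had differences of -0.05 in TAp73-/- and -0.01 in TAp73+/+ cells at 8 h and was not called.

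**Figure D3:**
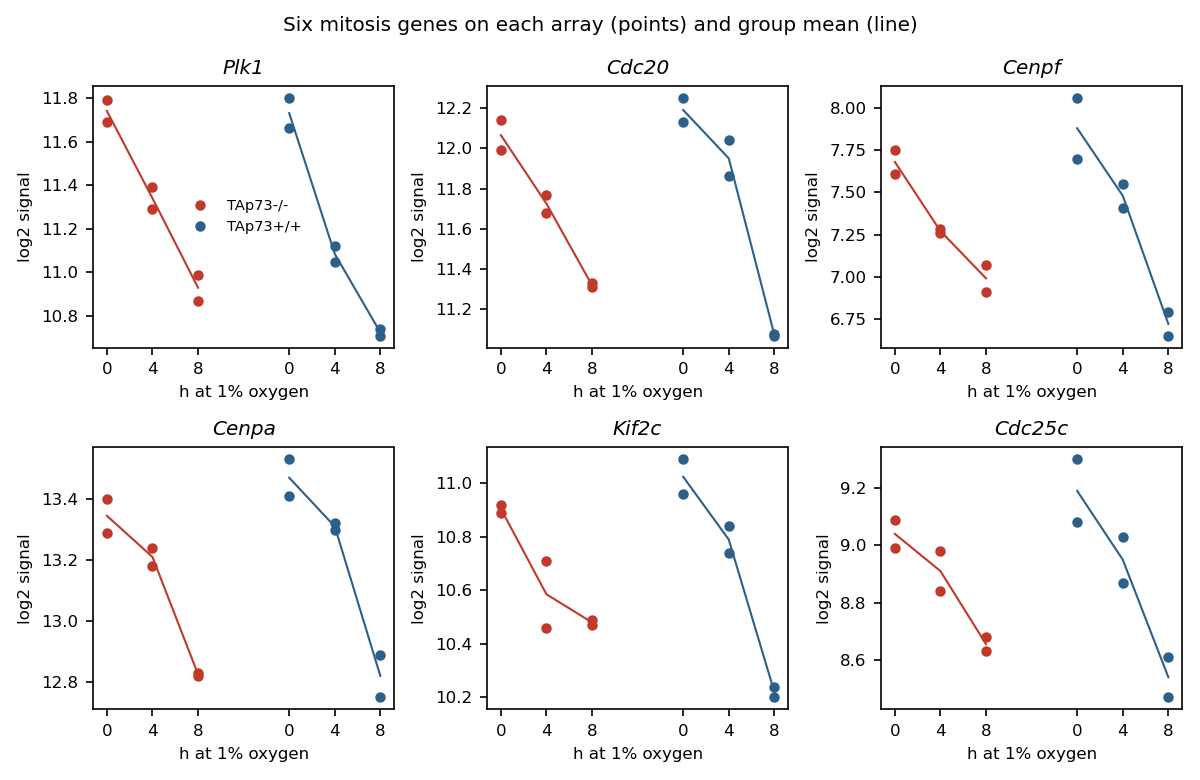
Log2 signal on each of the 12 arrays (points) and the group means (lines) of Plk1, Cdc20, Cenpf, Cenpa, Kif2c and Cdc25c against hours at 1% oxygen, with TAp73-/- in red on the left of each panel and TAp73+/+ in blue on the right. In all 6 genes and both genotypes the 8 h arrays lie below both untreated arrays.

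Among the checkpoint and kinetochore genes, 2 of 7 fell at 8 h in TAp73-/- cells and 3 of 7 in TAp73+/+ cells, and 0 rose at either time. Cenpf encodes a large kinetochore and microtubule-binding protein that accumulates late in the cell cycle. It read 7.75 and 7.61 untreated, 7.26 and 7.28 after 4 h, and 6.91 and 7.07 after 8 h in TAp73-/- cells, against 7.70 and 8.06 untreated, 7.41 and 7.55 after 4 h, and 6.65 and 6.79 after 8 h in TAp73+/+ cells. In both genotypes the 4 h arrays lay below the untreated ones and the 8 h arrays below those, with no overlap. It fell at 8 h, with differences of -0.69 ± 0.13 (adjusted p = 0.00426) in TAp73-/- and -1.16 ± 0.13 (adjusted p = 0.000173) in TAp73+/+ cells, and its other probe gave -0.35 and -0.34. Tested on its own, that probe was not called in either genotype (adjusted p = 0.121 and 0.113). Cenpa, the histone H3 variant that marks the centromere, gave the brightest signal of the group and read 13.40 and 13.29 untreated, 13.24 and 13.18 after 4 h, and 12.82 and 12.83 after 8 h in TAp73-/- cells, against 13.41 and 13.53 untreated, 13.32 and 13.30 after 4 h, and 12.75 and 12.89 after 8 h in TAp73+/+ cells. In both genotypes the 8 h arrays lay below all others, and the 4 h arrays close below the untreated ones. At 8 h the differences were -0.52 ± 0.10 (adjusted p = 0.00398) in TAp73-/- and -0.65 ± 0.10 (adjusted p = 0.00109) in TAp73+/+ cells, and those from 4 to 8 h were -0.38 ± 0.10 (adjusted p = 0.0316) and -0.49 ± 0.10 (adjusted p = 0.00926). The other Cenpa probe gave -0.47 and -0.48 at 8 h and, tested on its own, was not called (adjusted p = 0.215 and 0.184).

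Bub1b (BubR1), which inhibits the anaphase promoting complex while the checkpoint is on, fell in TAp73+/+ cells, with differences of -0.36 ± 0.10 (adjusted p = 0.0173) at 4 h and -0.48 ± 0.10 (adjusted p = 0.00559) at 8 h. Its TAp73-/- differences were -0.17 and -0.27 and were not called. Its other probe, tested on its own, was called lower in TAp73-/- cells at 4 h (-0.40, adjusted p = 0.0437) but not at 8 h (-0.23, adjusted p = 0.15). Ttk (Mps1), the kinase that starts checkpoint signalling, varied more between arrays than its neighbours and read 7.45 and 7.39 untreated, 6.95 and 8.02 after 4 h, and 7.10 and 7.16 after 8 h in TAp73-/- cells, against 6.69 and 7.14 untreated, 6.95 and 6.73 after 4 h, and 6.41 and 6.11 after 8 h in TAp73+/+ cells. The 4 h arrays of TAp73-/- cells lay on either side of the untreated ones, and no hypoxia difference of Ttk was called. Mad2l1, Ndc80 and Spc25 were not called at either hypoxia time, with differences between -0.28 (Mad2l1, TAp73-/-, 8 h) and 0.17 (Ndc80, TAp73-/-, 4 h).

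The chromosomal passenger complex corrects faulty attachments and positions the cleavage furrow, and its 4 subunits split into a pair that fell and a pair that did not. Incenp, its scaffold, read 10.28 and 10.39 untreated, 9.75 and 9.64 after 4 h, and 9.97 and 10.04 after 8 h in TAp73-/- cells, against 10.38 and 10.28 untreated, 9.74 and 9.71 after 4 h, and 9.89 and 10.01 after 8 h in TAp73+/+ cells. The lowest values were at 4 h in both genotypes, and the 8 h arrays lay between them and the untreated arrays. It fell at both times, with differences at 4 h of -0.64 ± 0.10 (adjusted p = 0.00364) in TAp73-/- and -0.60 ± 0.10 (adjusted p = 0.00162) in TAp73+/+ cells. At 8 h they were -0.33 ± 0.10 (adjusted p = 0.036) in TAp73-/- and -0.38 ± 0.10 (adjusted p = 0.017) in TAp73+/+ cells. Cdca8 (borealin) read 11.65 and 11.68 untreated, 11.52 and 11.30 after 4 h, and 11.56 and 11.52 after 8 h in TAp73-/- cells, against 12.01 and 11.80 untreated, 11.40 and 11.51 after 4 h, and 11.32 and 11.38 after 8 h in TAp73+/+ cells. All its hypoxic arrays lay below the untreated ones in both genotypes, and it fell by the test in TAp73+/+ cells, with differences of -0.45 ± 0.11 (adjusted p = 0.0113) at 4 h and -0.56 ± 0.11 (adjusted p = 0.0048) at 8 h. Its other probe gave 0.29 at 4 h and -0.37 at 8 h there, so the probes had opposite signs at 4 h. Aurkb (Aurora B), the kinase of the complex, read 11.37 and 11.62 untreated, 11.48 and 11.44 after 4 h, and 11.68 and 11.87 after 8 h in TAp73-/- cells, against 11.03 and 10.96 untreated, 11.11 and 11.13 after 4 h, and 11.25 and 11.19 after 8 h in TAp73+/+ cells. All its TAp73-/- arrays lay above all TAp73+/+ arrays. Birc5 (survivin) had hypoxia differences between -0.12 and 0.04 by its brightest probe, while its other probes gave 0.88 and 0.85 at 4 h in TAp73+/+ cells. Neither gene was called for hypoxia by its brightest probe. Tested on their own, the other Birc5 probes were called higher at 4 h in TAp73+/+ cells (adjusted p = 0.00902 and 0.00713). The Aurkb difference at 8 h was positive, 0.28 ± 0.11 (adjusted p = 0.0962) in TAp73-/- and 0.23 ± 0.11 (adjusted p = 0.148) in TAp73+/+ cells.

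Of the spindle motors and microtubule proteins, 2 of 11 fell at 8 h in TAp73-/- cells (Kif23 and Kif2c) and 8 of 11 in TAp73+/+ cells, where 1 rose. Kif2c, a kinesin that takes microtubules apart at kinetochores, read 10.92 and 10.89 untreated, 10.71 and 10.46 after 4 h, and 10.49 and 10.47 after 8 h in TAp73-/- cells, against 11.09 and 10.96 untreated, 10.84 and 10.74 after 4 h, and 10.24 and 10.20 after 8 h in TAp73+/+ cells. The 8 h arrays were the lowest in TAp73+/+ cells, and in TAp73-/- cells they lay beside the lower 4 h array. Its difference at 8 h was -0.43 ± 0.11 (adjusted p = 0.0159) in TAp73-/- and -0.80 ± 0.11 (adjusted p = 0.000544) in TAp73+/+ cells. Kif23, the motor of the centralspindlin complex in cytokinesis, was at -0.40 ± 0.09 (adjusted p = 0.0116) and -0.45 ± 0.09 (adjusted p = 0.00611). It has 4 probes past the filter and 1 of them read higher at 8 h in each genotype, by 0.03 in TAp73-/- and 0.37 in TAp73+/+ cells.

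Nusap1, which bundles spindle microtubules, fell at 8 h in TAp73+/+ cells, with a difference of -0.79 ± 0.11 (adjusted p = 0.000584). Tpx2, which activates Aurora A on the spindle, fell there with -0.65 ± 0.16 (adjusted p = 0.0143) and Kif22, a chromosome-bound kinesin, with -0.54 ± 0.11 (adjusted p = 0.0063). Prc1, which bundles the central spindle, and Kif4, its motor partner, fell with -0.45 ± 0.11 (adjusted p = 0.0126) and -0.41 ± 0.09 (adjusted p = 0.0089). Both dimmer Kif4 probes had the opposite sign, at 0.26 and 0.05. None of these 5 was called by its brightest probe at 8 h in TAp73-/- cells, where Nusap1 was at -0.27, Tpx2 at -0.42, Kif22 at -0.29, Prc1 at -0.25 and Kif4 at -0.15. The dimmest Nusap1 probe past the filter, tested on its own, was called lower there (-0.57, adjusted p = 0.0186). In TAp73+/+ cells that probe gave -0.08 at 8 h. Dlgap5 (HURP), which stabilises kinetochore fibres, read 10.04 and 9.96 untreated, 9.99 and 9.94 after 4 h, and 9.98 and 10.13 after 8 h in TAp73-/- cells, against 10.23 and 10.28 untreated, 9.54 and 9.73 after 4 h, and 9.30 and 9.58 after 8 h in TAp73+/+ cells. Its TAp73-/- arrays stayed within a narrow band at all times, while both hypoxia times lay below the untreated arrays in TAp73+/+ cells. The TAp73-/- differences were -0.04 ± 0.12 (adjusted p = 0.881) at 4 h and 0.05 ± 0.12 (adjusted p = 0.788) at 8 h. In TAp73+/+ cells Dlgap5 fell, with -0.62 ± 0.12 (adjusted p = 0.00363) at 4 h and -0.81 ± 0.12 (adjusted p = 0.00095) at 8 h.

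Ckap2 rose in TAp73+/+ cells, and Hmmr rose at 4 h in TAp73-/- cells. Ckap2, a spindle microtubule protein, read 9.02 and 9.04 untreated, 9.52 and 9.45 after 4 h, and 9.41 and 9.06 after 8 h in TAp73-/- cells, against 8.33 and 8.66 untreated, 9.80 and 9.70 after 4 h, and 9.36 and 9.04 after 8 h in TAp73+/+ cells. Every hypoxia array lay above the untreated arrays of its genotype. Its TAp73-/- differences, 0.45 ± 0.15 (adjusted p = 0.0998) at 4 h and 0.21 ± 0.15 (adjusted p = 0.367) at 8 h, were not called. In TAp73+/+ cells it rose by 1.25 ± 0.15 (adjusted p = 3e-04) at 4 h and 0.71 ± 0.15 (adjusted p = 0.0074) at 8 h. With the covariate the 4 h rise in TAp73+/+ cells became 0.12 (adjusted p = 0.935) and the 8 h rise 0.23 (adjusted p = 0.373). Without the first untreated array the 8 h rise was 0.54 (adjusted p = 0.0513), and Ckap2 has a single probe past the filter. Hmmr, a spindle assembly protein, was detected on 8 of 12 arrays and read 5.63 and 5.71 untreated, 6.39 and 6.44 after 4 h, and 5.78 and 5.48 after 8 h in TAp73-/- cells, against 4.61 and 5.29 untreated, 4.95 and 5.11 after 4 h, and 4.84 and 4.76 after 8 h in TAp73+/+ cells. The 4 h arrays stood above all others in TAp73-/- cells, with a rise of 0.75 ± 0.19 (adjusted p = 0.0374). From 4 to 8 h it fell there, with -0.78 ± 0.19 (adjusted p = 0.0253), and leaving out any 1 of the 4 arrays of a comparison ended either call. The 8 h differences of Hmmr were -0.03 in TAp73-/- and -0.15 in TAp73+/+ cells and were not called. With the covariate the 4 h rise in TAp73-/- cells became 0.10 (adjusted p = 0.88), and the TAp73+/+ difference at 8 h became -0.78 and was called (adjusted p = 0.0242).

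For cytokinesis, Ect2 and Anln passed the filter and moved differently. Ect2, the exchange factor that activates RhoA at the cleavage furrow, read 6.65 and 6.97 untreated, 7.27 and 7.38 after 4 h, and 6.98 and 6.37 after 8 h in TAp73-/- cells, against 5.63 and 5.71 untreated, 6.86 and 7.18 after 4 h, and 6.37 and 6.13 after 8 h in TAp73+/+ cells. The untreated TAp73+/+ arrays were the lowest of all, and both hypoxia times lay above them. It rose in TAp73+/+ cells by 1.35 ± 0.19 (adjusted p = 0.000765) at 4 h and 0.58 ± 0.19 (adjusted p = 0.0495) at 8 h. The 8 h call was lost when any 1 of the 4 arrays was left out, and with the covariate the rises became 0.23 (adjusted p = 0.925) at 4 h and 0.11 (adjusted p = 0.817) at 8 h. Anln (anillin), the scaffold of the contractile ring, read 12.36 and 12.39 untreated, 12.25 and 12.23 after 4 h, and 11.99 and 12.01 after 8 h in TAp73-/- cells, against 12.22 and 12.30 untreated, 12.12 and 12.26 after 4 h, and 11.98 and 12.07 after 8 h in TAp73+/+ cells. Its 8 h arrays were the lowest in both genotypes, and it fell in TAp73-/- cells, with a difference of -0.38 ± 0.09 (adjusted p = 0.0159), a call that leaving out any 1 of the 4 arrays ended. The TAp73+/+ difference, -0.23 ± 0.09 (adjusted p = 0.0904), was not called. The other Anln probe, tested on its own, was called lower at 8 h in TAp73+/+ cells (-0.64, adjusted p = 0.00713). In TAp73-/- cells it was at -0.35 (adjusted p = 0.101). That probe was also called lower in TAp73-/- than in TAp73+/+ cells untreated (-0.67), at 4 h (-0.52) and at 8 h (-0.37), where the brightest gave 0.11, 0.06 and -0.03.

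The genes of the anaphase promoting complex and of chromosome separation had 3 of 5 members called lower at 8 h in TAp73-/- and 4 of 5 in TAp73+/+ cells. Cdc20 activates the complex and is the protein that the spindle checkpoint holds back. It read 12.14 and 11.99 untreated, 11.77 and 11.68 after 4 h, and 11.31 and 11.33 after 8 h in TAp73-/- cells, against 12.13 and 12.25 untreated, 11.86 and 12.04 after 4 h, and 11.08 and 11.07 after 8 h in TAp73+/+ cells. In both genotypes the 8 h arrays were lowest, and the 4 h arrays lay between them and the untreated ones. Cdc20 fell at 8 h, with differences of -0.74 ± 0.10 (adjusted p = 0.000706) in TAp73-/- and -1.11 ± 0.10 (adjusted p = 3.86e-05) in TAp73+/+ cells. Its 3 other probes gave -0.80, -0.92 and -0.70 in TAp73-/- cells and -0.97, -1.0 and 0.05 in TAp73+/+ cells, so in the TAp73+/+ cells the dimmest did not follow. Under all 13 settings the 8 h fall was called in both genotypes, and with the covariate it was -0.76 and -1.18.

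Ube2c, the ubiquitin-conjugating enzyme that serves the complex, read 8.70 and 8.45 untreated, 8.57 and 8.58 after 4 h, and 8.18 and 8.30 after 8 h in TAp73-/- cells, against 8.10 and 8.02 untreated, 7.23 and 7.86 after 4 h, and 6.97 and 6.94 after 8 h in TAp73+/+ cells. All 4 hypoxic TAp73+/+ arrays lay below the untreated ones. The TAp73-/- differences, 0.00 ± 0.17 (adjusted p = 0.993) at 4 h and -0.33 ± 0.17 (adjusted p = 0.19) at 8 h, were not called. In TAp73+/+ cells it fell, with -0.51 ± 0.17 (adjusted p = 0.045) at 4 h and -1.11 ± 0.17 (adjusted p = 0.00137) at 8 h, and the 4 h call was lost without either untreated array or the first 4 h array, among other settings. Espl1 (separase), the protease that opens cohesin at anaphase, read 9.37 and 9.36 untreated, 8.77 and 8.68 after 4 h, and 8.80 and 8.96 after 8 h in TAp73-/- cells, against 9.55 and 9.49 untreated, 9.10 and 9.0 after 4 h, and 8.96 and 9.15 after 8 h in TAp73+/+ cells. It was lower at both times in both genotypes with no overlap. The differences were -0.64 ± 0.10 (adjusted p = 0.00556) at 4 h and -0.48 ± 0.10 (adjusted p = 0.00818) at 8 h in TAp73-/- cells and -0.47 ± 0.10 (adjusted p = 0.00769) and -0.47 ± 0.10 (adjusted p = 0.00929) in TAp73+/+ cells.

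Pttg1 (securin), the inhibitor of separase, was detected on 8 of 12 arrays and read 6.0 and 6.19 untreated, 6.10 and 5.46 after 4 h, and 4.44 and 4.95 after 8 h in TAp73-/- cells, against 4.97 and 5.25 untreated, 5.48 and 5.2 after 4 h, and 4.84 and 5.13 after 8 h in TAp73+/+ cells. In TAp73-/- cells the 8 h arrays were below detection and below all others of that genotype. In TAp73+/+ cells the untreated values overlapped those of both hypoxia times, and the 8 h arrays lay below the 4 h arrays. Pttg1 was at least 2.09-fold lower at 8 h than untreated in TAp73-/- cells (adjusted p = 0.00188). The fitted difference at 8 h in TAp73+/+ cells was -0.13 ± 0.23 (adjusted p = 0.722). Cdca3, an adaptor for the destruction of the entry inhibitor Wee1, had a difference of -0.16 ± 0.10 (adjusted p = 0.256) at 8 h in TAp73-/- cells and fell in TAp73+/+ cells, with -0.47 ± 0.10 (adjusted p = 0.00606). The other Cdca3 probe, tested on its own, was called lower at 8 h in both genotypes. It gave -0.40 (adjusted p = 0.0444) in TAp73-/- and -0.59 (adjusted p = 0.0066) in TAp73+/+ cells.

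Condensin and topoisomerase II fold and untangle the chromosomes, and none of their 5 genes fell against untreated cells by its brightest probe. Dimmer probes of Smc4 and Top2a did, as given below. Smc2, an ATPase core subunit of condensin, read 8.81 and 9.01 untreated, 9.40 and 9.16 after 4 h, and 9.40 and 9.37 after 8 h in TAp73-/- cells, against 8.11 and 9.33 untreated, 9.69 and 9.56 after 4 h, and 9.34 and 9.10 after 8 h in TAp73+/+ cells. The first untreated TAp73+/+ array was the lowest of all 12, and the rise called at 4 h in TAp73+/+ cells, 0.91 ± 0.29 (adjusted p = 0.0391), became 0.30 (adjusted p = 0.217) without it. Smc4, its partner, read 7.86 and 8.11 untreated, 8.57 and 8.07 after 4 h, and 8.26 and 8.22 after 8 h in TAp73-/- cells, against 7.45 and 8.04 untreated, 8.35 and 8.27 after 4 h, and 7.53 and 7.39 after 8 h in TAp73+/+ cells. The 8 h arrays of TAp73+/+ cells lay below both 4 h arrays. By its brightest probe Smc4 fell over that step, with -0.85 ± 0.20 (adjusted p = 0.0195), and was called in no other hypoxia comparison. Its dimmest probe, tested on its own, was called lower at 8 h than untreated in TAp73+/+ cells (-0.59, adjusted p = 0.0158). Its remaining probe gave -0.18 there (adjusted p = 0.706). Ncapd2 and Ncaph, subunits of condensin I, were not called for hypoxia. Top2a, topoisomerase II alpha, read 11.87 and 11.96 untreated, 11.85 and 11.81 after 4 h, and 12.11 and 12.03 after 8 h in TAp73-/- cells, against 10.97 and 11.16 untreated, 11.58 and 11.68 after 4 h, and 11.55 and 11.55 after 8 h in TAp73+/+ cells by its brightest probe. The untreated TAp73+/+ arrays were the lowest. By that probe the differences were -0.08 at 4 h and 0.16 at 8 h in TAp73-/- cells, and it rose in TAp73+/+ cells by 0.57 ± 0.10 (adjusted p = 0.00233) at 4 h and 0.49 ± 0.10 (adjusted p = 0.00572) at 8 h.

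The other probes of Top2a went the opposite way, and this split runs through part of the list. At 4 h in TAp73+/+ cells they gave -0.92 and -1.47, and with the mean of all its probes Top2a was at -0.61 (adjusted p = 0.00292). Of 8 mitosis genes called at 4 h in TAp73+/+ cells that have other probes, 4 (Cdk1, Cdca8, Nusap1 and Top2a) had a probe of opposite sign, and at 8 h 4 of 13 did (Kif23, Kif4, Cdc20 and Top2a). Of 6 such genes called at 8 h in TAp73-/- cells, 1 (Kif23) had a probe of opposite sign. The same share among all called genes was not counted, so these counts have no background here. The dimmest Cdc20 probe read 8.08 and 8.16 untreated, 8.75 and 8.30 after 4 h, and 7.63 and 7.22 after 8 h in TAp73-/- cells, against 6.01 and 7.07 untreated, 8.57 and 8.44 after 4 h, and 6.80 and 6.39 after 8 h in TAp73+/+ cells. Its difference was 1.96 at 4 h in TAp73+/+ cells, where the brighter probes gave -0.24, -0.17 and 0.02. Both dimmer Kif4 probes read higher at 4 h in TAp73+/+ cells, at 1.14 and 0.93, against -0.11 for the brightest. The probe score given above was highest on the untreated TAp73+/+ arrays. What it stands for, and its part in these results, was not tested.

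**Figure D4:**
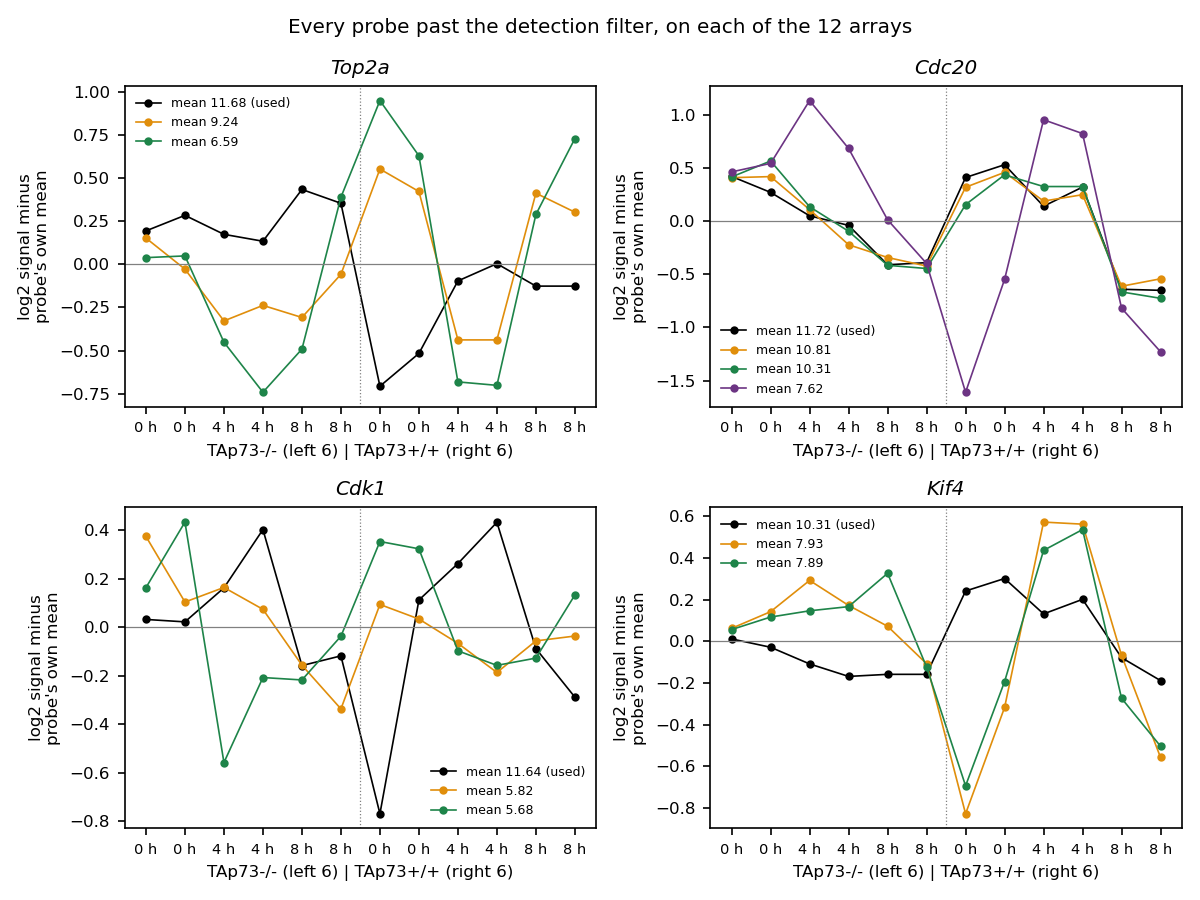
Log2 signal minus the probe's own mean (vertical axis) on each of the 12 arrays (horizontal axis, TAp73-/- left and TAp73+/+ right of the dotted line, by hours at 1% oxygen) for every probe past the filter of Top2a, Cdc20, Cdk1 and Kif4. The black line is the probe used, and on the untreated TAp73+/+ arrays the Cdc20 probe of mean 7.62 lies below it and the Top2a probe of mean 6.59 above it.

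TAp73-/- and TAp73+/+ cells differed in 23 of the 41 mitosis genes at 1 or more times (56.1%), against 58.3% of all genes, so the count was near the background. Untreated, 10 were higher (24.4%) and 3 lower (7.32%) in TAp73-/- cells, where 18% of all genes were higher and 20.4% lower. At 4 h of hypoxia 8 were higher (19.5%) and 7 lower (17.1%), near the background of 18.5% of all genes higher and 18% lower. At 8 h 11 were higher (26.8%) and 1 was lower (2.44%), where 18.2% of all genes were higher and 18.2% lower. The median difference was -0.07 untreated, -0.04 at 4 h and 0.11 at 8 h, against -0.03, -0.03 and -0.01 for all genes. The times share no arrays but may share the cell lines. Ccna2, Aurkb, Tpx2, Hmmr and Ube2c were higher in TAp73-/- cells at all 3 times, and 0 of the 41 were lower at all 3. The share of all genes higher or lower at all 3 times was not counted, so these counts have no background here.

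Ube2c, whose arrays are given above, had differences of 0.52 ± 0.17 (adjusted p = 0.0335) untreated, 1.03 ± 0.17 (adjusted p = 0.00104) at 4 h and 1.29 ± 0.17 (adjusted p = 0.000221) at 8 h, and every TAp73-/- array lay above every TAp73+/+ array of all times. Ccna2 was higher by 0.61 ± 0.16 (adjusted p = 0.0132), 1.0 ± 0.16 (adjusted p = 0.000985) and 0.76 ± 0.16 (adjusted p = 0.00454) at the same times. Hmmr was higher by 0.72 ± 0.19 (adjusted p = 0.0111) untreated and 1.38 ± 0.19 (adjusted p = 0.000265) at 4 h, with 1 of 2 TAp73+/+ arrays detected at each of those times, and at 8 h, where it was not detected in TAp73+/+ cells, it was at least 1.49-fold higher (adjusted p = 0.00562). Aurkb differences were 0.50 ± 0.11, 0.34 ± 0.11 and 0.55 ± 0.11, with adjusted p = 0.00452, 0.0325 and 0.00288. Tpx2 differences were 0.55 ± 0.16, 0.61 ± 0.16 and 0.78 ± 0.16, with adjusted p = 0.019, 0.0123 and 0.00343. The untreated calls of Hmmr (0.38, adjusted p = 0.0739), Ube2c (0.56, adjusted p = 0.0835) and Tpx2 were lost without the first untreated TAp73+/+ array, and with the covariate Hmmr turned sign untreated (-0.87) and at 8 h (-0.25), neither being called. With the covariate the other 4 kept a positive difference at all 3 times, and Ccna2, Hmmr and Ube2c were called at 4 h. These 5 genes act in different steps, from S phase and entry (Ccna2) to spindle assembly (Tpx2, Hmmr), attachment (Aurkb) and exit (Ube2c).

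Other genes differed at some times only, and differences between times were tested only as differences in response, below. Ect2 was higher in untreated TAp73-/- cells by 1.14 ± 0.19 (adjusted p = 0.00104) and Pttg1 by 0.98 ± 0.23 (adjusted p = 0.00641). With the covariate Ect2 was at -0.04 (adjusted p = 0.983), and without the first untreated TAp73+/+ array Pttg1 was at 0.84 (adjusted p = 0.0548). At 8 h Ttk was higher by 0.87 ± 0.28 (adjusted p = 0.0301), Dlgap5 by 0.61 ± 0.12 (adjusted p = 0.00247) and Nusap1 by 0.44 ± 0.11 (adjusted p = 0.00817). The genes lower in TAp73-/- cells included Kif11, the motor that makes the spindle bipolar, at -0.44 ± 0.11 (adjusted p = 0.0116) untreated and -0.61 ± 0.11 (adjusted p = 0.00231) at 4 h, and Mad2l1, a checkpoint protein that binds Cdc20, at -0.32 ± 0.11 (adjusted p = 0.0384) at 4 h and -0.44 ± 0.11 (adjusted p = 0.00922) at 8 h. The other Mad2l1 probe, tested on its own, was not called, at 0 (adjusted p = 0.987) at 4 h and -0.17 (adjusted p = 0.329) at 8 h. Ncapd2 was lower, at -0.40 ± 0.12 (adjusted p = 0.0254) untreated and -0.35 ± 0.12 (adjusted p = 0.0465) at 4 h. Kif4 was lower untreated by its brightest probe, at -0.28 ± 0.09 (adjusted p = 0.0279), while its other probes gave 0.68 and 0.53. Top2a was higher by 0.85 ± 0.10 (adjusted p = 9.32e-05) untreated and 0.52 ± 0.10 (adjusted p = 0.00242) at 8 h by its brightest probe, while its other probes gave -0.42 and -0.74 untreated and -0.54 and -0.56 at 8 h. Smc4 was higher at 8 h by 0.78 ± 0.20 (adjusted p = 0.011), with its other probes at 0.60 and -0.46, and with the covariate it was at -0.03 (adjusted p = 0.981). All 3 Birc5 probes read higher in untreated TAp73-/- cells, by 0.42, 0.94 and 0.99.

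**Figure D5:**
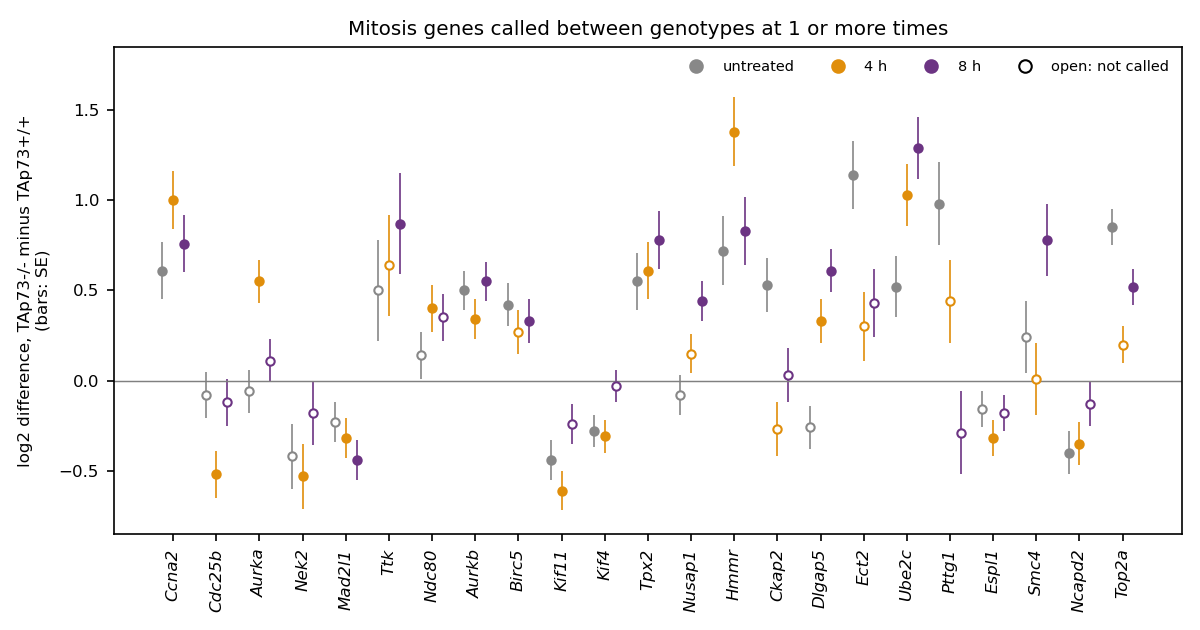
Log2 difference TAp73-/- minus TAp73+/+ (vertical axis, bars are standard errors) in untreated cells (grey), at 4 h (orange) and at 8 h (purple) of 1% oxygen, for the 23 mitosis genes called at 1 or more times, with filled points for called differences. Ccna2, Aurkb, Tpx2, Hmmr and Ube2c are filled and above 0 at all 3 times.

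The untreated count was 6 without the first untreated TAp73-/- array and 6 without the first untreated TAp73+/+ array (where Birc5, Kif11, Tpx2, Hmmr, Ckap2, Ube2c, Pttg1 and Ncapd2 were lost), the 4 h count was 7 without the second TAp73-/- array and 7 and 5 without the first and second TAp73+/+ arrays, and the 8 h count was 7 without the first TAp73-/- array. With the probe score as a covariate 0 genes were called untreated, 6 at 4 h (4 of them also called without it) and 0 at 8 h.

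Whether the response to hypoxia itself differed between the genotypes was tested as an interaction. With limma 0 mitosis genes were called, where 0.304% of all genes were called for the 4 h and 0.478% for the 8 h response. A gene called in a single genotype is therefore not shown to respond differently. An unadjusted p below 0.05 was found for 7 of the 41 at 4 h and for 12 at 8 h. Of all 10873 genes, 1831 and 1623 had one. The median difference in response of the 41 was -0.02 at 4 h and 0.2 at 8 h, against 0.03 at both times for all genes. The closest at 4 h was Top2a, whose response was more negative in TAp73-/- cells by -0.65 ± 0.14 (adjusted p = 0.0663), followed by Ckap2 at -0.80 ± 0.21 (adjusted p = 0.105) and Aurka at 0.61 ± 0.16 (adjusted p = 0.108). At 8 h the closest was Dlgap5, whose response was more positive in TAp73-/- cells by 0.86 ± 0.17 (adjusted p = 0.0556), and Nusap1 was at 0.52 ± 0.15 (adjusted p = 0.149). Pttg1 is left out here, being below detection at 8 h in TAp73-/- cells. Top2a at 4 h was called with the submitters' processed values (adjusted p = 0.0218), with a background offset of 50 (adjusted p = 0.0333) and, with Cdk1 and Smc2, without the second untreated TAp73+/+ array (adjusted p = 0.0355), but its other probes had the opposite sign (0.57 and 0.83). Dlgap5 at 8 h was called with the processed values (adjusted p = 0.0128), with the offset of 50 (adjusted p = 0.0204) and when only genes detected on all 12 arrays were tested (adjusted p = 0.0447), and its other probe gave 0.34.

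Lists of further mitotic genes, none of them among the 49, gave the following counts at 8 h, where 10.2% of all genes fell and 10.6% rose in TAp73-/- cells and 12.3% fell and 11.6% rose in TAp73+/+ cells. Up to 3 of the widest called members of a list are named. Of 23 other spindle, motor and cytokinesis genes past the filter, 9 fell and 0 rose in TAp73-/- cells (median -0.38), and 10 fell and 0 rose in TAp73+/+ cells (median -0.36). The nuclear import receptor Kpna2 was at -1.0 (adjusted p = 0.0377) and the kinesin Kif18a at -0.68 (adjusted p = 0.00693) in TAp73-/- cells. The spindle proteins Spag5 and Aspm were at -0.82 (adjusted p = 0.00177) and -0.77 (adjusted p = 0.00538) in TAp73+/+ cells. Of 25 other kinetochore and centromere genes, 2 fell and 1 rose in TAp73-/- cells (median -0.04), and 4 fell and 0 rose in TAp73+/+ cells (median -0.11), with the scaffold Knl1 at -0.83 and -0.93, so these counts were near the background. The 13 core subunits and adaptors of the anaphase promoting complex had 2 lower and 0 higher in each genotype, with medians of -0.27 in TAp73-/- and -0.22 in TAp73+/+ cells. Of 4 other condensin genes 1 fell and 1 rose in TAp73-/- cells (median -0.01), and 0 fell and 1 rose in TAp73+/+ cells (median -0.13). Among 15 cohesin genes 1 fell and 1 rose in TAp73-/- cells, and 2 fell and 1 rose in TAp73+/+ cells, with medians of -0.05 and -0.01. Other entry control genes had 4 of 11 lower and 1 higher in TAp73-/- cells (median -0.16). In TAp73+/+ cells 4 were lower and 2 higher (median -0.13). Ccnf (cyclin F) was at -0.61 and -0.54, but its other probe had the opposite sign in TAp73-/- cells.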

How the data were processed

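Per the file headers, the deposited table gives, for 45281 probes of 12 Illumina arrays, the bead intensity and a detection p-value. The deposited series matrix holds processed intensity values, attributed to Partek by the submitters' processing notes. They had the rank order of the signals (rank correlation 1) and served as an alternative. Their median was 71.5 on the first array, and at the same rank the other arrays differed from that array by at most 42.7. Signals were corrected by normexp from the detection p-values (offset 16), then quantile-normalised with log2 output (neqc, limma 3.58.1, R 4.3.3). A probe was kept if both arrays of some group gave it a detection p-value below 0.05 (21223 probes). Gene symbols came from the platform's annotation in GEO (34885 with 1 symbol, 18 with several, 10378 with none), and 34807 symbols were matched through Entrez identifiers to RefSeq (GRCm38.p6). The brightest probe stood for its gene. Group means were fitted over the 12 arrays together (lmFit and eBayes, total degrees of freedom 10.8), 11 comparisons were tested, and the fit was tested on simulated data. Where a group had no detection, the fold is a bound, measured against the lowest detected signal of each array or the probe's own, whichever was higher. The number of arrays limits the precision. Array values are given for Cdk1, Plk1, Aurka and Cdc20, for up to 3 members of each role with the largest called difference, and for Cdc25c and Kif2c, added after their values were seen. The members, roles, further lists and tests were chosen with earlier results of these data known. Alternatives were the processed values, an offset of 50, no detection filter, detection on all 12 arrays, the mean of all probes, each probe on its own, a replicate block, the probe score as a covariate, only the arrays of that genotype or time, and each array left out.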

Additional observations from a re-analysis of the deposited data

How the results depend on the processing

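With 2 arrays per group, single calls moved easily, while the 8 h falls of Plk1, Cdc20, Cenpa and Cenpf were called in both genotypes under every setting tried. The setting of each probe on its own scored only the brightest probe of a gene. Tested on their own, the dimmer Cenpa and Cenpf probes were not called at 8 h in either genotype (adjusted p from 0.113 to 0.215). Nor was the dimmest Cdc20 probe (adjusted p = 0.136 in TAp73-/- and 0.914 in TAp73+/+ cells). With each array left out in turn, any of the 12, the number of mitosis genes called ranged from 2 to 6 (TAp73-/-, 4 h), 5 to 15 (TAp73-/-, 8 h), 1 to 7 (TAp73-/-, 8 against 4 h), 8 to 15 (TAp73+/+, 4 h), 14 to 24 (TAp73+/+, 8 h), 2 to 15 (TAp73+/+, 8 against 4 h), 6 to 14 (genotypes, untreated), 5 to 15 (genotypes, 4 h), 7 to 13 (genotypes, 8 h), 0 to 3 (difference in the 4 h response) and 0 to 0 (difference in the 8 h response).

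With the probe score as a covariate 0 genes were called for TAp73-/- at 4 h and at 8 against 4 h, TAp73+/+ at 4 h and at 8 against 4 h, and between genotypes untreated and at 8 h, 9 for TAp73+/+ at 8 h and 6 between genotypes at 4 h. Fitted to the arrays of that genotype alone, 8 against 4 h gave 1 in TAp73-/- and 8 in TAp73+/+ cells. The processed values gave 8 for TAp73-/- at 4 h, 9 for TAp73-/- at 8 against 4 h and 1 for each difference in response. The offset of 50 gave 8 for TAp73-/- at 8 against 4 h and 1 for each difference in response, and testing genes detected on all 12 arrays gave 1 for the difference in the 8 h response. Other settings stayed within 1.5 times. The causes were not tested.

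Signs turned with the covariate for Cdk1 at 4 h in TAp73+/+ cells (-0.86), Smc2 there (-1.25), Ckap2 at 8 against 4 h in TAp73+/+ cells (0.12), and between genotypes for Hmmr untreated (-0.87) and at 8 h (-0.25), Ckap2 (-0.66) and Ect2 (-0.04) untreated and Smc4 at 8 h (-0.03). None of these was called after turning. With the mean of all probes Top2a turned to -0.61 (adjusted p = 0.00292) at 4 h in TAp73+/+ cells, and to -0.10 untreated and -0.19 at 8 h between genotypes.

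Of 73 called results of the named genes, 17 stayed called with the covariate, 61 without the filter, 62 with the mean of all probes, 57 with the arrays of that genotype or time, all 62 that could be tested with detection on all 12 arrays, and 67 to 71 with the processed values, the offset of 50, single probes or the replicate block. With the replicate block 6 of 73 were lost, and the counts were 3, 11 and 5 in TAp73-/- cells (4 h, 8 h, 8 against 4 h), 14, 23 and 10 in TAp73+/+ cells, 13, 13 and 12 between genotypes (untreated, 4 h, 8 h) and 0 and 0 for the differences in response. Arrays of the same number deviated together by more than 0.1 in 2 of 15 pairs of groups (correlations from -0.25 to 0.125), so the arrays share only a number and the block is no pairing.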

Other observations

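Genes of DNA replication, which comes earlier in the cell cycle than mitosis, were counted at 8 h of hypoxia in the same way. Of 23 past the filter, 1 rose and 2 fell in TAp73-/- cells (median 0.09), and 6 rose and 0 fell in TAp73+/+ cells (median 0.17), where 10.6% and 11.6% of all genes rose, 10.2% and 12.3% fell and their medians were 0 and -0.02. The licensing factor Cdt1 rose in TAp73-/- cells by 0.73 (adjusted p = 0.000302). The 2 that fell there were Ccne1, at -0.57 (adjusted p = 0.00886), and Rrm2, at -0.42 (adjusted p = 0.0257). In TAp73+/+ cells Ccne2 (cyclin E2) rose by 0.96 (adjusted p = 0.015), Mcm3 by 0.93 (adjusted p = 0.00555) and Tyms (thymidylate synthase) by 0.58 (adjusted p = 0.0348). Of the 4 other Tyms probes, 3 had the same sign. The difference between the lists was not tested.

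Of 11 genes that control late cell cycle transcription and passed the filter, 1 rose and 0 fell at 8 h in TAp73-/- cells, and 2 rose and 0 fell in TAp73+/+ cells. The gene that rose in TAp73-/- cells was Cdkn1a (p21, an inhibitor of cyclin-dependent kinases), at 0.39 (adjusted p = 0.00964), and it rose at 4 h by 0.47 in TAp73-/- and 0.43 in TAp73+/+ cells. At 4 h 1 of the 11 rose and 0 fell in TAp73-/- cells, where 3.13% of all genes rose and 3.84% fell. In TAp73+/+ cells 2 rose and 1 fell at 4 h, where 12% of all genes rose and 16% fell. The gene that fell was Mybl2, at -0.64 (adjusted p = 0.00166), with 1 of its 2 other probes of the same sign. Between the genotypes 0 of these 11 were higher in TAp73-/- cells at any time, and 4 were lower untreated, 5 at 4 h and 4 at 8 h, where 20.4%, 18% and 18.2% of all genes were lower and 18%, 18.5% and 18.2% higher. They included E2f4, a repressor E2F, at -0.77 untreated (adjusted p = 0.00101), and Nfya, a subunit of NF-Y, at -0.99 at 8 h (adjusted p = 0.00125). Their part in the levels of the mitosis genes was not tested.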
